A study of Mus musculus with 8 samples.

Results

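Activity-dependent synaptic effectors and the BDNF signalling genes around them were followed in mouse cortex on Affymetrix arrays. The members were all probe sets annotated as *Arc*, *Homer1*, *Bdnf*, *Ntrk2*, *Ntrk3*, *Ptgs2*, *Plat* or *Inhba*, which gave 8 of 12422 probe sets. They stand for 7 of the 8 genes named, because no probe set carries the symbol *Arc*. *Homer1* has 2 probe sets and each of the other genes has 1. The 8 arrays hold cortical tissue of 1 individual mouse each, which the methods describe as taken from a limited range of coronal slices. There were 2 S1/2-/- mice at ZT16, 2 S1/2-/- mice at ZT4, 2 WT mice at ZT16 and 2 WT mice at ZT4. ZT is zeitgeber time in hours after light onset. All mice were of the C57/bl6 strain, were 4 months old by the labels and were housed in groups under a light-dark cycle without treatment. ZT4 falls into the light phase, in which mice mostly rest, and ZT16 into the dark phase, in which they are mostly awake. S1/2-/- mice are null for both SHARP1 (*Bhlhe41*) and SHARP2 (*Bhlhe40*), basic helix-loop-helix repressors of clock genes, and the methods give them as offspring of double heterozygous parents. The question was whether these genes differed between ZT16 and ZT4, and whether that difference was altered in S1/2-/- mice.

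Neuronal activity raises calcium in the cell, and calcium-dependent kinases then act on transcription factors such as CREB and SRF, which switch on a set of immediate early genes within minutes. Some of these encode further transcription factors, such as *Fos* and *Egr1*. Others, the effectors, encode proteins that act directly at the synapse, among them ARC, the short form of HOMER1, the secreted neurotrophin BDNF, the inducible cyclooxygenase COX-2 (*Ptgs2*), tissue plasminogen activator (*Plat*) and activin A (a dimer of the *Inhba* product). BDNF is made as a precursor that proteases such as plasmin, which tissue plasminogen activator generates, can convert to the mature form. Mature BDNF acts through the receptor tyrosine kinase TrkB (*Ntrk2*), while TrkC (*Ntrk3*) is the receptor of the related neurotrophin-3. In rodent cortex, mRNAs of several of these genes are known to be higher after waking than after sleep.

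Promoter sequence from RefSeq (build GRCm38.p6) was used here for 5 of the 8 genes, as 12 windows of 300 bases that run from 250 bases before to 50 bases after an annotated start. *Bdnf* has 7 of these windows, *Homer1* 2, and *Ptgs2*, *Ntrk2* and *Inhba* 1 each. Each window was searched on both strands for the E-box CACGTG, the element that SHARP proteins are known to bind, and for TGACG, the core of the cAMP response element bound by CREB. Of all 32851 windows in the table, 7.15% hold the E-box and 20.8% hold the CREB core. Among the 12 windows, 1 holds the E-box and 3 the CREB core. These 3 stretches are shown because each holds at least 1 of these motifs in a gene whose values follow, and the capitals mark the motif letters.
*Homer1*, chr13:93303657-93303756, plus strand, the last 100 bases before the start: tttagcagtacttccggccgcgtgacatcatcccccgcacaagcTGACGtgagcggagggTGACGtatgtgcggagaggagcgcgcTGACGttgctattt
*Bdnf*, chr2:109692336-109692435, plus strand, the last 100 bases before the start: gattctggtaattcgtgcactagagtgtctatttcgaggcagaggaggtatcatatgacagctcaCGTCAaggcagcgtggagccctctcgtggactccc
*Ptgs2*, chr1:150100033-150100062, plus strand, 30 bases just after the start: agtcaccactaCGTCACGTGgagtccgctt

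The *Homer1* stretch holds the CREB core 3 times, beginning at positions -56, -40 and -14 relative to the start, and 1.04% of all windows hold it at least 3 times. The *Bdnf* stretch holds it once, on the minus strand and therefore printed as CGTCA, from position -35 to -31. In *Ptgs2* the E-box lies at positions 17 to 22 after the start and overlaps the CREB core, which lies on the minus strand at positions 14 to 18. A match of letters describes the window and not a bound site. The other *Homer1* window, the other 6 *Bdnf* windows and the windows of *Ntrk2* and *Inhba* held neither motif. No promoter window was used here for *Plat*, *Ntrk3* and *Arc*.

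Signals are MAS5 values, the manufacturer's linear summary of the probes of a probe set, scaled to the same trimmed mean of 500 on every array. The 10th percentile of the arrays lay between 15.2 and 17.4 and the median between 186 and 206, and replicate arrays of a group correlated at r = 0.936 to 0.940 over all probe sets. Changes were estimated with limma on log2 signals, with all 8 arrays in 1 fit, and p-values were adjusted by the Benjamini-Hochberg method over the 7453 probe sets that passed a filter on low signal. The filter kept 7 of the 8 member probe sets, which stand for 6 genes. It dropped *Ntrk2*, whose values below come from the same fit without the filter. To be called, a probe set had to change by more than 1.5-fold at an adjusted p under 0.05. The fit has 4 residual degrees of freedom, and an exact permutation test of 2 arrays against 2 cannot go below p = 0.333. Groups of 2 arrays that lie apart from each other reach only this p. The share of all probe sets whose groups lie apart is not given here. The *Bhlhe40* probe set was at 834 to 1043 in the 4 S1/2-/- arrays, against 983 to 1285 in the 4 WT arrays. The sources used here do not give its place relative to the deleted part, so it checks no label. No probe set carries *Bhlhe41* as its only symbol. All 13 markers of cortical excitatory neurons on the array passed the filter.

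*Bdnf* had the narrowest range of the 8 member probe sets, 1.49-fold between its lowest and highest array. Its signal was 1835 and 1481 in S1/2-/- cortex at ZT16, against 2079 and 1772 in S1/2-/- cortex at ZT4. In WT cortex it was 1613 and 1422 at ZT16, against 2118 and 1669 at ZT4. Both WT arrays at ZT16 lay below both at ZT4, while the S1/2-/- arrays overlapped between the times. The log2 fold change of ZT16 over ZT4 was -0.22 in S1/2-/- mice (standard error 0.16, limma adjusted p = 0.787) and -0.31 in WT mice (standard error 0.16, adjusted p = 0.670). Averaged over both genotypes it was -0.27 (standard error 0.11), which stood under 0.05 before adjustment and at an adjusted p = 0.491 in limma. In that average 9.38% of all tested probe sets had an unadjusted p under 0.05 and 0% were called, and *Bdnf* was the only one of the 7 tested member probe sets under 0.05. None of the 7 was under 0.05 with no intensity trend, with the ANOVA, or without S1/2-/- replicate 2 at ZT16, S1/2-/- replicate 1 at ZT4 or WT replicate 1 at ZT4. The 95% interval of the averaged change ran from a ratio of 0.70 to 0.99, and the 4 arrays at ZT16 overlapped with the 4 at ZT4. The genotypes differed at ZT16 by 0.12 (standard error 0.16, adjusted p = 0.809), and the difference between their changes over time was 0.09 (standard error 0.22, adjusted p = 0.970).

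*Inhba*, which encodes the subunit of activin A, was measured at lower signal. It reached 228 and 190 in S1/2-/- cortex at ZT16, against 204 and 168 in S1/2-/- cortex at ZT4. The WT signals were 135 and 168 at ZT16, against 170.1 and 170.3 at ZT4. At ZT16 both S1/2-/- arrays thus lay above both WT arrays, with a log2 fold change of 0.46 (95% interval -0.19 to 1.12, limma adjusted p = 0.584). The summed signal of the 13 cortical excitatory neuron markers, none of them at 0, was also higher, with 23920 to 25848 in S1/2-/- arrays at ZT16 against 20896 to 23771 in WT arrays at ZT16, and its part in the *Inhba* values was not tested. Of these 13 markers 8 were higher and 5 lower in S1/2-/- arrays at ZT16. The abundant *Nrgn* alone was at 6633 and 5442 in S1/2-/- cortex, against 4534 and 3614 in WT cortex. The sums of S1/2-/- replicate 2 and WT replicate 1 at ZT16 (23920 and 23771) were closer than their *Nrgn* signals (5442 and 4534). Without *Nrgn* the sums of the genotypes at ZT16 would thus overlap. Between ZT16 and ZT4 *Inhba* changed by 0.17 in S1/2-/- mice (adjusted p = 0.932) and by -0.17 in WT mice (adjusted p = 0.913), a value of -0.017 without WT replicate 1 at ZT16. The difference between these changes was 0.34 (95% interval -0.59 to 1.27, adjusted p = 0.938). Averaged over both times S1/2-/- exceeded WT by 0.29 (standard error 0.21, limma adjusted p = 0.601), and the 4 arrays of the genotypes overlapped. In a bulk sample such as this, fewer cells that express a gene and less mRNA in each of them cannot be told apart.

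*Ntrk2*, the TrkB receptor, was dim and scattered on this probe set, with a 12.0-fold range over the 8 arrays. Its signal was 116 and 21.8 in S1/2-/- cortex at ZT16, against 18.6 and 106 in S1/2-/- cortex at ZT4. In WT cortex it was 23.1 and 9.66 at ZT16, against 70.4 and 46.2 at ZT4. Both WT arrays at ZT16 lay below both at ZT4, and in S1/2-/- mice replicates of 1 group differed by more than the groups did. The WT change of -1.93 had a 95% interval of -4.28 to 0.42 (limma adjusted p = 0.742), the S1/2-/- change of 0.18 had one of -2.17 to 2.53 (adjusted p = 0.992), and the genotypes differed at ZT16 by 1.75 (adjusted p = 0.657). The difference between the changes was 2.11 (95% interval -1.21 to 5.43, adjusted p = 0.911), so neither a large change nor its absence could be shown at this signal. TrkB is known to have full-length and truncated forms, and the sources used here do not say which of them the probe set detects.

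*Ntrk3*, the TrkC receptor, passed the filter but varied strongly between replicates. Its signal was 323 and 243 in S1/2-/- cortex at ZT16, against 519 and 185 in S1/2-/- cortex at ZT4, so the widest gap of all 8 arrays lay within 1 group. The WT arrays gave 268 and 231 at ZT16, against 348 and 284 at ZT4, without overlap. The log2 fold change over time was -0.14 in S1/2-/- mice (95% interval -1.05 to 0.76, limma adjusted p = 0.965) and -0.34 in WT mice (95% interval -1.24 to 0.57, adjusted p = 0.868). At ZT16 the genotypes differed by 0.17 (adjusted p = 0.905), with overlapping arrays.

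*Plat*, the protease upstream of plasmin, had signals of 606 and 744 in S1/2-/- cortex at ZT16, against 705 and 550 in S1/2-/- cortex at ZT4. The WT signals were 526 and 512 at ZT16, against 542 and 773 at ZT4. Both WT arrays at ZT16 were lower than every other array of the series, by a small margin over the lowest WT array at ZT4. The log2 fold change of ZT16 over ZT4 was 0.11 in S1/2-/- mice (standard error 0.21, limma adjusted p = 0.937) and -0.32 in WT mice (standard error 0.21, adjusted p = 0.717). The WT value was -0.061 without WT replicate 2 at ZT4. The difference between these changes was 0.43 (95% interval -0.23 to 1.08, adjusted p = 0.912). At ZT16 S1/2-/- exceeded WT by 0.37 (95% interval -0.09 to 0.83, adjusted p = 0.537). *Plat* is also known from vascular cells. Of the 19 endothelial and pericyte markers on the array, 16 were above the filter and none was at 0. The summed signal of the 19 was 5149 to 5842 in S1/2-/- arrays at ZT16 and 5079 to 5134 in WT arrays at ZT16. Markers above the filter were split, with 8 higher and 8 lower in S1/2-/- than in WT arrays at ZT16. Their median difference was -0.016 on the log2 scale. The part of these markers in the *Plat* values was not tested.

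*Homer1* encodes long scaffold proteins that link metabotropic glutamate receptors to the postsynaptic density and a short, activity-induced form that competes with them. The sources used here do not say which form each of the 2 probe sets detects. The probe set of lower signal, called the dimmer one here, gave 168 and 226 in S1/2-/- cortex at ZT16, against 101 and 103 in S1/2-/- cortex at ZT4. In WT cortex it gave 226 and 103 at ZT16, against 152 and 124 at ZT4. The S1/2-/- arrays at ZT16 lay clear above those at ZT4, while the 2 WT arrays at ZT16 enclosed both WT arrays at ZT4. The S1/2-/- change was 0.93 on the log2 scale, a 1.91-fold higher signal at ZT16 (95% interval 0.99-fold to 3.67-fold), with an adjusted p = 0.676 in limma. It had the lowest p of the 7 tested member probe sets in that comparison, and was not under 0.05 before adjustment either. The WT change was 0.16 (95% interval -0.79 to 1.10, adjusted p = 0.949), and the difference between the changes was 0.78 (95% interval -0.56 to 2.11, adjusted p = 0.912). At ZT4 both S1/2-/- arrays lay below both WT arrays (log2 fold change -0.43, adjusted p = 0.879), and at ZT16 the genotypes overlapped (0.35, adjusted p = 0.792).

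The brighter *Homer1* probe set did not share this pattern. It gave 564 and 311 in S1/2-/- cortex at ZT16, against 355 and 441 in S1/2-/- cortex at ZT4, and 480 and 270 in WT cortex at ZT16, against 458 and 370 in WT cortex at ZT4. All 4 groups overlapped. Its changes were 0.08 in S1/2-/- mice (limma adjusted p = 0.981) and -0.19 in WT mice (adjusted p = 0.916), and the genotypes differed at ZT16 by 0.22 (adjusted p = 0.841). Over the 8 arrays the log2 signals of the 2 *Homer1* probe sets correlated at r = 0.31, given as a description of arrays that share 4 groups.

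*Ptgs2*, the activity-induced prostaglandin synthase of excitatory neurons, had signals of 150 and 134 in S1/2-/- cortex at ZT16, against 154 and 160 in S1/2-/- cortex at ZT4. The WT arrays gave 156 and 86.0 at ZT16, against 197 and 125 at ZT4. The S1/2-/- arrays at ZT16 were slightly below those at ZT4, and the WT arrays overlapped. The log2 fold changes over time were -0.14 in S1/2-/- mice (95% interval -1.04 to 0.76, limma adjusted p = 0.966) and -0.44 in WT mice (95% interval -1.34 to 0.46, adjusted p = 0.804). The WT value was -0.007 without WT replicate 2 at ZT16. The genotypes differed at ZT16 by 0.29 (adjusted p = 0.824) and overlapped.

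**Figure D1:**
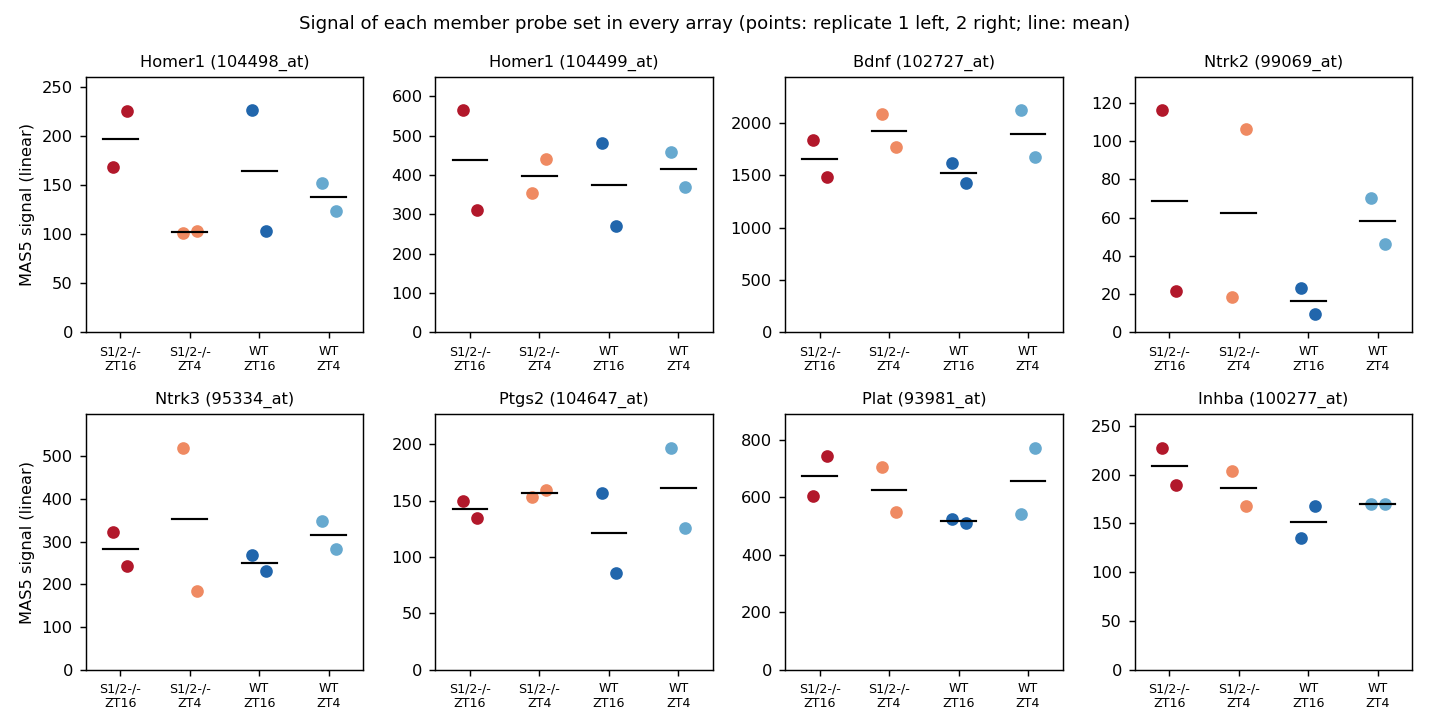
MAS5 signal on a linear scale (vertical axis) of the 8 member probe sets in each array, with groups from left to right S1/2-/- at ZT16, S1/2-/- at ZT4, WT at ZT16 and WT at ZT4. Points are single mice (replicate 1 left, replicate 2 right) and lines are means of 2, and the WT arrays at ZT16 are lowest for Plat (526 and 512) while the S1/2-/- arrays at ZT16 stand above those at ZT4 for the dimmer Homer1 probe set (168 and 226 against 101 and 103).

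None of the 7 tested member probe sets was called by limma in any of the 7 comparisons. In S1/2-/- mice 4 of the 7 were higher and 3 lower at ZT16 than at ZT4, with 0 at an unadjusted p under 0.05, where 7.31% of all tested probe sets had such a p and 0% were called. In WT mice 1 was higher and 6 were lower at ZT16, also with 0 at an unadjusted p under 0.05, against 7.61% of all tested probe sets with such a p and 0.0134% called. The median log2 fold change of the 7 was 0.08 in S1/2-/- mice and -0.31 in WT mice, where the median over all tested probe sets was -0.003 in both. All 7 differences of the changes, S1/2-/- minus WT, were above 0, with a median of 0.30 against 0.01 over all probe sets. None of the 7 had an unadjusted p under 0.05 for that difference (5.69% of all probe sets did, and 0% were called), and their adjusted p-values ran from 0.912 to 0.971. The count rested on single arrays: it fell to 4 of 7 above 0 without S1/2-/- replicate 1 at ZT16 (median 0.21), and to 5 of 7 without S1/2-/- replicate 2 at ZT4 (0.25), WT replicate 2 at ZT16 (0.08) or WT replicate 1 at ZT4 (0.12).

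At ZT16 all 7 tested member probe sets were higher in S1/2-/- than in WT arrays, with a median of 0.29 against 0.01 over all probe sets, and 0 had an unadjusted p under 0.05, where 10.9% of all probe sets did and 0.0134% were called. At ZT4, 2 were higher and 5 lower in S1/2-/- arrays, with a median of -0.02, and again 0 were under 0.05 (7.29% of all, with 0.0939% called). Averaged over both times 6 were higher and 1 lower, with 0 under 0.05 (12.4% of all, with 0.255% called). These comparisons share arrays, so their signs are not independent of each other. WT replicate 2 at ZT16 had the lowest signal of all 8 arrays in 5 of the 8 member probe sets (the brighter *Homer1* probe set, *Bdnf*, *Ntrk2*, *Ptgs2* and *Plat*) and the highest in 0. Over all tested probe sets it was lowest in 19.5% and highest in 18.4%, so it stood at both ends. Without this array 2 of the 7 were higher and 5 lower at ZT16 in WT mice, with a median of -0.22, and at ZT16 4 of the 7 stood higher in S1/2-/- than in WT arrays, with a median of 0.03. Without S1/2-/- replicate 1 at ZT16 that count was 4 of 7 as well (median 0.21), and without WT replicate 1 at ZT4 the WT median over time was -0.14. Without WT replicate 1 at ZT16 all 7 were lower at ZT16 in WT mice, with a median of -0.41. The number of calls among all probe sets also changed without that array, in a fit that leaves 1 WT array at ZT16. It rose in WT over time and between the genotypes at ZT16, and no member was called.

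**Figure D2:**
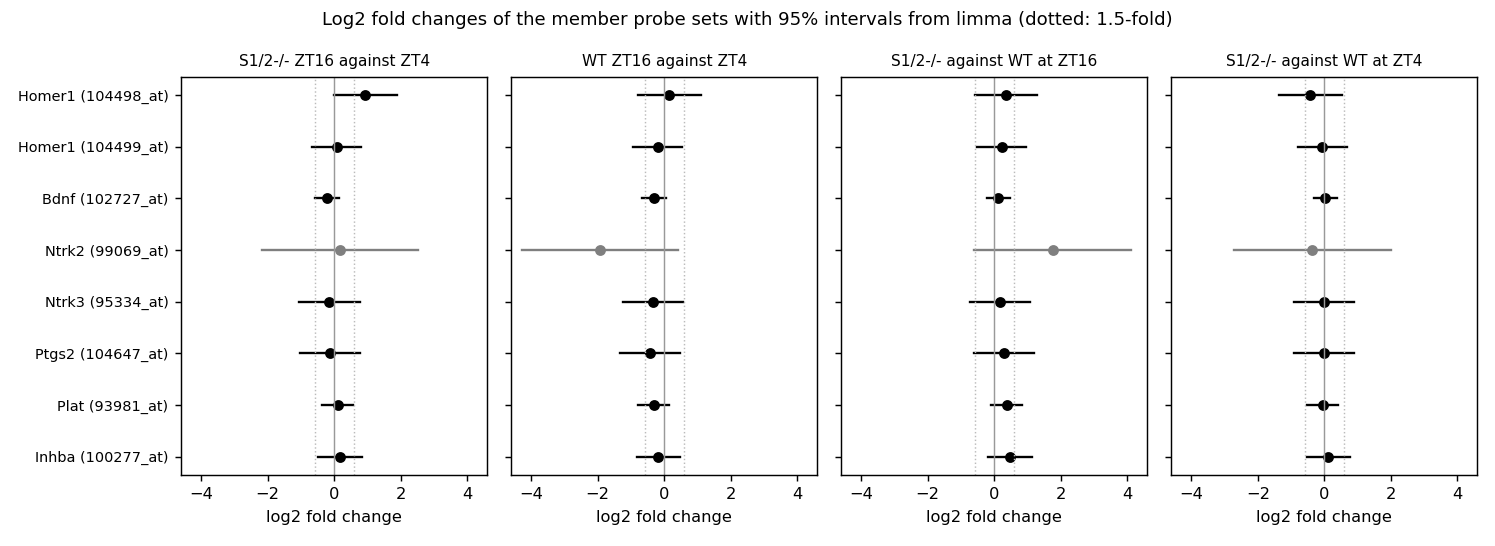
Log2 fold changes (horizontal axis) of the 8 member probe sets in 4 comparisons, from left to right ZT16 over ZT4 in S1/2-/- mice and in WT mice, then S1/2-/- over WT at ZT16 and at ZT4. Points are limma estimates and bars their 95% intervals, dotted lines mark a 1.5-fold change, grey marks Ntrk2, which was fitted without the filter, and every interval reaches across 0.

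Markers of neighbouring regions and of other cell types differed between the groups beside these values. The 12 striatal markers on the array, 9 of them above the filter and none at 0, summed to 14296 to 20183 in S1/2-/- arrays at ZT16, 16829 to 23533 in S1/2-/- arrays at ZT4, 18279 to 23415 in WT arrays at ZT16 and 10952 to 11030 in WT arrays at ZT4. The 13 choroid plexus markers, of which 5 passed the filter and none was at 0, summed to 3530 to 3802 in S1/2-/- arrays at ZT16, 4230 to 5789 in S1/2-/- arrays at ZT4, 6625 to 7269 in WT arrays at ZT16 and 3300 to 3387 in WT arrays at ZT4. The 14 oligodendrocyte markers, 12 above the filter and none at 0, summed to 35127 to 38406 in the 4 S1/2-/- arrays, against 24652 to 32511 in the 4 WT arrays. In S1/2-/- arrays 11 of the 12 were higher and 1 lower at ZT4, and 9 were higher and 3 lower at ZT16. Limma called 4 of them at ZT4, all higher (0.0939% of all tested probe sets were called), and 0 at ZT16 (0.0134% of all). The excitatory neuron markers summed to 20896 to 23771 in WT arrays at ZT16, against 22690 to 24524 in WT arrays at ZT4, with the lowest sum in WT replicate 2 at ZT16. A sum gives abundant genes more weight. *Penk* alone, a striatal marker, was at 8476 and 12383 in WT arrays at ZT16, against 3279 and 3601 at ZT4. *Ttr* alone, a choroid plexus marker, was at 2582 and 2412 in WT arrays at ZT16, against 83.2 and 331 at ZT4. In WT mice 8 of the 9 tested striatal markers were higher and 1 lower at ZT16 than at ZT4. Of the 5 tested choroid plexus markers 4 were higher and 1 lower. The part of composition in the members' values was not tested.

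The immediate early transcription factors had a median change in WT mice in the direction opposite to that of the members. Of 24 listed genes 13 were tested. In S1/2-/- mice 7 were higher and 6 lower at ZT16 than at ZT4, with 2 at an unadjusted p under 0.05 and a median log2 fold change of 0.05, which was -0.24 without S1/2-/- replicate 2 at ZT4 and 0.26 without replicate 1. In WT mice 10 were higher and 3 lower, with 6 under 0.05, all of them higher, and a median of 0.51, which ran from 0.36 to 0.65 when 1 array was left out. None was called by limma in either genotype. Of all tested probe sets 7.31% had an unadjusted p under 0.05 in S1/2-/- mice and 7.61% in WT mice. *Fos* gave 445 and 341 in S1/2-/- cortex at ZT16, against 476 and 264 in S1/2-/- cortex at ZT4. In WT cortex it gave 1026 and 679 at ZT16, against 282 and 141 at ZT4, a 4.19-fold higher signal at ZT16 (adjusted p = 0.132). *Junb*, a partner of FOS, was 3.01-fold higher in WT at ZT16 (adjusted p = 0.074). At ZT16 *Nr4a1*, an orphan nuclear receptor, was at 883 and 930 in S1/2-/- cortex, against 2280 and 1379 in WT cortex (log2 fold change -0.97, adjusted p = 0.361), and *Ier2*, another early gene, was at 255 and 229 in S1/2-/- cortex, against 501 and 402 in WT cortex (-0.89, adjusted p = 0.281). Of all 13, at ZT16 3 were higher and 10 lower in S1/2-/- than in WT arrays, with a median of -0.08. That median ran from -0.35 to 0.023 when 1 array was left out. At ZT4 11 were higher and 2 lower in S1/2-/- arrays, with a median of 0.28. For these factors the difference of the changes had a median of -0.65, which ran from -0.93 to -0.38 when 1 array was left out. Of the 13 differences 9 lay below 0, 5 of them at an unadjusted p under 0.05 (5.69% of all tested probe sets had such a p). The members' median of that difference was 0.29 with 1 probe set per gene (6 genes), and the 2 medians were set side by side without a test.

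Other activity-regulated effectors, a list of 28 genes that holds none of the members, had 18 tested genes. In S1/2-/- mice 8 were higher and 10 lower at ZT16, and in WT mice 9 were higher and 9 lower, with medians of -0.08 in S1/2-/- mice and 0.003 in WT mice. Under an unadjusted p of 0.05 there were 2 in S1/2-/- mice and 5 in WT mice, all of them higher, and limma called none. The shares of all tested probe sets were 7.31% and 7.61%. *Tac1*, the precursor of substance P and also in the striatal marker list, gave 513 and 915 in S1/2-/- cortex at ZT16, against 674 and 1047 in S1/2-/- cortex at ZT4. In WT cortex it gave 854 and 1308 at ZT16, against 253 and 390 at ZT4 (3.37-fold, adjusted p = 0.164). *Plk2*, an activity-induced kinase of synaptic scaling, was 1.35-fold higher in WT at ZT16 (adjusted p = 0.539). Between the genotypes at ZT16, *Nptx2*, a secreted pentraxin that clusters AMPA receptors, was at 590 and 644 in S1/2-/- cortex, against 474 and 423 in WT cortex (log2 fold change 0.46, adjusted p = 0.376). *Rasgrp1*, an activator of Ras, was at 1088 and 847 in S1/2-/- cortex, against 745 and 473 in WT cortex (0.69, adjusted p = 0.365).

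**Figure D3:**
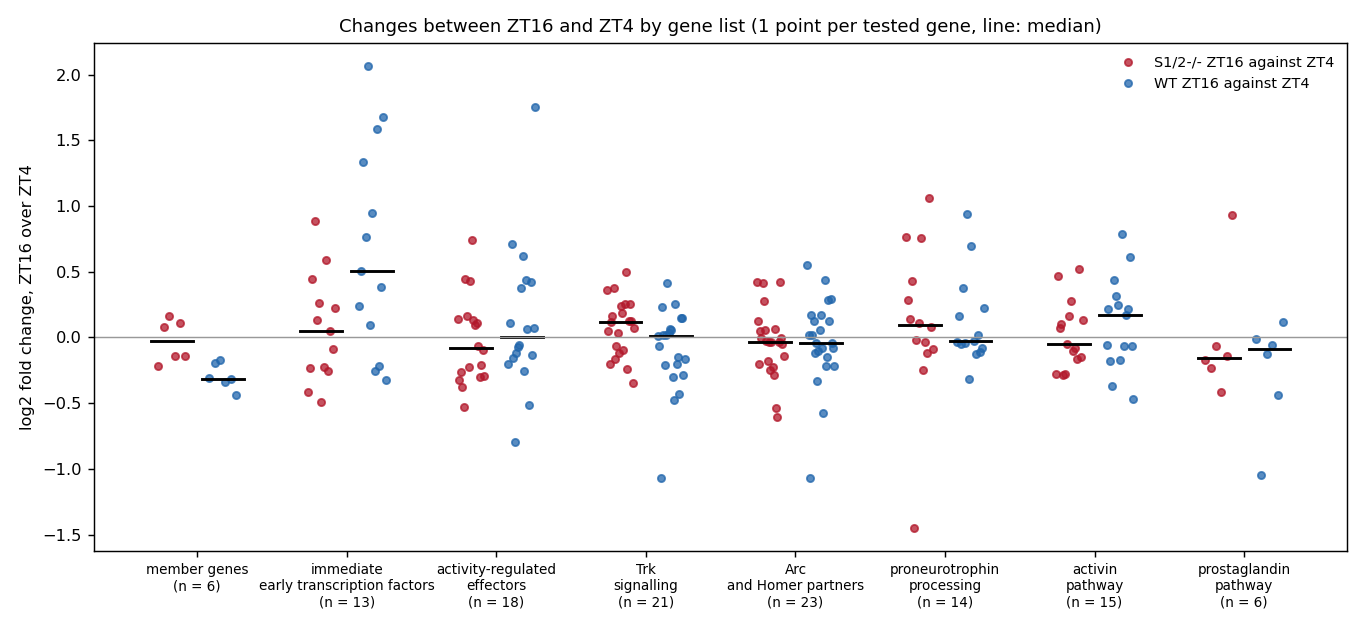
Log2 fold change of ZT16 over ZT4 (vertical axis) for the tested genes of each list (horizontal axis, n is the number of genes), in S1/2-/- mice in red on the left and in WT mice in blue on the right, with 1 point per gene at its brightest probe set and a line at the median. The immediate early transcription factors have medians of 0.05 in S1/2-/- and 0.51 in WT mice, and the 6 member genes medians of -0.03 in S1/2-/- and -0.31 in WT mice.

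Around BDNF, 4 of the 14 listed neurotrophins and receptors were on the array and 3 were tested, *Bdnf*, *Ntrk3* and *Sorl1*, a sorting receptor related to sortilin. *Sorl1* was at 269 and 189 in S1/2-/- cortex at ZT16 and at 235 and 181 in WT cortex at ZT16 (log2 fold change 0.13, limma adjusted p = 0.893). Its WT change over time was -0.31 (adjusted p = 0.798). Of the 46 genes of Trk signalling 21 were tested. At ZT16 11 were higher and 10 lower in S1/2-/- than in WT arrays, with a median of 0.006. Of these 1 higher and 2 lower ones had an unadjusted p under 0.05, as did 10.9% of all tested probe sets. *Map2k1*, the kinase upstream of ERK, was at 1868 and 2011 in S1/2-/- cortex at ZT16, against 2287 and 2724 in WT cortex (log2 fold change -0.36, adjusted p = 0.342), and *Crkl*, an adaptor, was at 429 and 358 in S1/2-/- cortex, against 562 and 516 in WT cortex (-0.46, adjusted p = 0.391). *Camk2a*, the calcium kinase of excitatory synapses, was at 617 and 210 in WT cortex at ZT16, against 934 and 610 at ZT4 (-1.07, adjusted p = 0.625), with its lowest signal again in WT replicate 2. *Map2k2* was 1.34-fold higher in WT at ZT16 than at ZT4 (adjusted p = 0.641).

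Of 28 genes for proneurotrophin processing and plasminogen activation 14 were tested, *Plat* among them. At ZT16 6 were higher and 8 lower in S1/2-/- than in WT arrays, and limma called none. Of these 1 higher and 4 lower ones had an unadjusted p under 0.05, as did 10.9% of all tested probe sets. *Serpini1*, which encodes neuroserpin, the inhibitor of tissue plasminogen activator in the brain, was at 8253 and 7843 in S1/2-/- cortex at ZT16, against 9586 and 9546 in WT cortex. The groups were apart, with a log2 fold change of -0.25 (standard error 0.08, adjusted p = 0.346). *Pcsk6*, a proprotein convertase, was at 102 and 60.9 in S1/2-/- cortex at ZT16, against 220 and 190 in WT cortex (-1.38, adjusted p = 0.306). *Plg*, the precursor of plasmin, was 1.62-fold higher in WT at ZT16 than at ZT4 (adjusted p = 0.625) on a probe set whose name ends in f, which the manufacturer uses for sets that may detect a family of sequences.

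Among 39 partners of ARC and HOMER 23 were tested. At ZT16 16 were higher and 7 lower in S1/2-/- than in WT arrays, with a median of 0.08. Of these 2 higher and 1 lower ones had an unadjusted p under 0.05, as did 10.9% of all tested probe sets. *Sh3gl3*, an endophilin that binds ARC, was at 948 and 1169 in S1/2-/- cortex, against 797 and 490 in WT cortex (log2 fold change 0.75, limma adjusted p = 0.318), and *Dlgap4*, a postsynaptic scaffold, was at 2085 and 1894 in S1/2-/- cortex, against 1797 and 1400 in WT cortex (0.32, adjusted p = 0.414). The AMPA receptor subunit gene *Gria3* changed by -0.57 over time in WT mice (adjusted p = 0.625). Of 24 genes of the prostaglandin pathway 6 were tested, and at ZT16 3 were higher and 3 lower in S1/2-/- arrays. The gene under an unadjusted p of 0.05 was *Cbr1*, a carbonyl reductase that converts prostaglandins, at 513 and 658 in S1/2-/- cortex, against 786 and 735 in WT cortex (-0.39, adjusted p = 0.448), and *Ptges2*, a prostaglandin E synthase, differed by -0.18 (adjusted p = 0.706). Over time in WT mice *Pla2g5*, a phospholipase A2, was at 94.2 and 63.4 at ZT16, against 209 and 123 at ZT4 (-1.05, adjusted p = 0.698). The prostaglandin D synthase gene *Ptgds* stood at 13568 and 13834 in WT cortex at ZT16, against 14228 and 15670 at ZT4 (-0.12, adjusted p = 0.769). Of 24 genes of the activin pathway 15 were tested, 8 higher and 7 lower in S1/2-/- arrays at ZT16. The activin receptor gene *Acvr2a* was at 676 and 745 in S1/2-/- cortex, against 615 and 489 in WT cortex (0.37, adjusted p = 0.463), and *Smad4*, the shared mediator of the pathway, differed by -0.34 (adjusted p = 0.549). Over time in WT mice the receptor gene *Acvrl1* changed by 0.44 (adjusted p = 0.670) and *Inhbc*, another inhibin subunit, by 0.79 (adjusted p = 0.676). No gene of these lists was called in any of the 7 comparisons.

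The genes whose signals followed each member most closely over the 8 arrays are given as a description, since the arrays share groups and 6770 to 6772 probe sets were searched for each member. For *Bdnf* they were *R3hdm1* (r = 0.96), *Cyb5b* (0.94) and *Mef2c* (0.92), the last an activity-regulated transcription factor of excitatory neurons and 1 of the neuron markers. For *Ptgs2* they were *Atp13a3* (0.98), *Enc1* (0.97) and *Kif1b* (0.96), and for the brighter *Homer1* probe set they were *Atxn2* (0.97), *Sema4b* (0.97) and *Taok3* (0.96). *Inhba* was closest to *Ahcy* (0.97), *Ube2d2a* (0.95) and *Pald1* (0.95), and *Plat* to *Arih2* (0.93), *Gabpa* (0.93) and *Apip* (0.92). *Ntrk3* was closest to *Ube2a* (0.96), *Nfyb* (0.96) and *Synj2* (0.90), and *Ntrk2* to *Hspa4* (0.95), *Tbc1d24* (0.92) and *Nucks1* (0.92). Among the members the highest correlations were those of *Ntrk2* with the brighter *Homer1* probe set (0.80) and of *Bdnf* with *Ptgs2* (0.78), over the same 8 arrays.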

How the data were processed

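Cortical RNA of 8 individual mice was hybridised to 1 Affymetrix array each. The authors condensed the intensity of the probes to MAS5 signals on a linear scale and deposited 1 table of 12488 probe sets by 8 arrays. The sources used here name no version of MAS5. All columns were matched to mice by sample title. Probe sets were named from the platform annotation: 10833 have 1 symbol, 396 several and 1193 none. After 66 controls were left out, 64 signals below 1 were raised to 1 and all signals were put on the log2 scale. The test was run on probe sets whose log2 signal averaged at least 6.79 (the 40th percentile, a signal of 111).

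All arrays were fitted as 4 group means with limma 3.58.1 in R 4.3.3, with an intensity trend of the variance, 4 residual and 6.02 prior degrees of freedom. From it 7 comparisons were taken. The steps were tested on simulated data. The number of arrays limits the precision. The members and gene lists were chosen with earlier results of these data known. Named are all members, the 2 to 4 genes per list with the largest moderated statistic in WT over time or between genotypes at ZT16, and the 3 genes most like each member gene at its brightest probe set. Lists used the brightest probe set of a gene. Promoters were RefSeq windows. Alternatives were other filters, normalizations, a pseudocount of 16, no trend, the methods' ANOVA, a replicate block, subsets of 4 arrays and each array left out.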

Additional observations from a re-analysis of the deposited data

How the results depend on the processing

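No member was called under any alternative, and the lowest adjusted p of a member was 0.258. Another filter or model cannot move a member fold change, and neither can a subset that keeps all arrays of the compared groups. With these arrays kept, only the normalizations and the pseudocount could turn its sign. Under these no value turned, except that *Bdnf* in S1/2-/- against WT at ZT4 went to -0.003 with median centring. In all, 58 of 928 values turned, 57 of them when 1 array was left out. The 928 include alternatives that cannot move a value, such as another filter, another model or the loss of an array outside the comparison. Counted as 1 probe set in 1 comparison, 31 of 56 results turned under at least 1 alternative. Between the values without each array, the WT change over time ran from -0.41 to 0.72 for the dimmer *Homer1* probe set and from -0.61 to 0.22 for the brighter, where the ends are the fits without WT replicate 1 and 2 at ZT16. The S1/2-/- change over time ran from -0.35 to 0.51 for the brighter *Homer1* probe set, from -1.08 to 1.44 for *Ntrk2*, from -0.89 to 0.60 for *Ntrk3* and from -0.07 to 0.29 for *Plat*. S1/2-/- against WT at ZT16 ran from -0.21 to 0.92 for the dimmer *Homer1* probe set, from -0.21 to 0.65 for the brighter, from -0.032 to 0.28 for *Bdnf*, from -0.032 to 0.37 for *Ntrk3* and from -0.14 to 0.72 for *Ptgs2*. The difference of changes for *Bdnf* ran from -0.079 to 0.27. The cause was not tested. With 1 array left in a group, its spread is taken from the other groups.

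With the replicate number as a block the fit called 0 members in each comparison. The deviations of same-numbered arrays correlated at -0.001 to 0.10, so a pairing by number was not evident. The replicate block changed no call of a member. Among all probe sets the block fit called 10 in place of 1 in WT over time and 2 in place of 0 for the difference of the changes. Between the genotypes it called 13 in place of 7 at ZT4, but 0 in place of 1 at ZT16 and 13 in place of 19 averaged over the times. The low signals of *Ntrk2*, between 9.66 and 116 where the array medians were 186 to 206, limit what can be seen of it.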
